A study of Mus musculus with 12 samples.

Results

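Mouse Hox clusters hold or adjoin genes that are not Hox genes, and 6 of these were described here: Smug1, Skap2, Evx2, Hotairm1, Gm15050 and Gm53. They were chosen by name because the authors list them in their table of control brachial against control thoracic motor neurons, so the control-level values below describe how they were picked and carry no test. That table holds 64 genes, and the 3 deposited tables hold 205 different genes. Smug1 is also among the 130 genes of the thoracic mutant table, and none of the 6 is among the 62 genes of the brachial mutant table. By the biotype column, Smug1, Skap2 and Evx2 are protein coding, Hotairm1 and Gm15050 are antisense RNAs and Gm53 is a long intergenic noncoding RNA. The control-level table has 3 noncoding genes in all, and they are Hotairm1, Gm15050 and Gm53.

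RNA was sequenced from spinal motor neurons of mouse embryos at E12.5 on a highly mixed C57BL/6 background, in 4 groups of 3 libraries named A, B and C. The groups were PbxMNdelta brachial and PbxMNdelta thoracic cells, which carry a Pbx mutation in motor neurons, and brachial and thoracic cells of control littermates. In every group the cells carried the Hb9::GFP reporter, whose fluorescence was used for sorting. Which Pbx genes were deleted, and by which driver, is not stated in the labels, and the series text speaks of 9 pooled controls and 9 pooled mutants without saying how they fell over the libraries. The labels do not tie a group's libraries to different embryos, so p-values measure only the spread between these libraries. None of 9 general motor neuron markers is listed in the control-level or the thoracic mutant table and 3 are in the brachial mutant table, so the identity of the sorted cells was not checked. Values are the authors' normalized counts, that is reads divided by 1 factor per library. If 1 step of these values is 1 read, each library's listed genes add up to 14181 to 17457 reads in the control-level table and to 50690 to 81370 in the thoracic mutant table.

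Hox genes encode homeodomain transcription factors that give cells their position along the head-to-tail axis. They stand in clusters, and genes toward the 3′ end of a cluster are used further forward in the body than genes toward the 5′ end, so that brachial and thoracic motor neurons use different Hox genes to set their columns and targets. Pbx proteins are homeodomain cofactors that bind DNA together with Hox proteins. Noncoding RNAs made inside the clusters, and coding genes that flank them, share this chromosomal neighbourhood.

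Gene order was read from GENCODE on GRCm38, while the submitters' processing notes name mm9, so no positions of the genes are given. Skap2 on chromosome 6 was the next coding gene beyond the 3′ end of the HoxA cluster. Hotairm1 lay at the 3′ side of Hoxa2, on the strand opposite to it. Gm15050 lay within the span of Hoxa3 on the opposite strand, and its exons overlapped none of that gene's exons. No source used here states a strand setting for the counting, so reads of an antisense RNA and of a gene that overlaps it on the other strand cannot be told apart, and the counts of Hotairm1 are uncertain for this reason.

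Smug1 on chromosome 15 was the next coding gene beyond the 3′ end of the HoxC cluster, with 6 annotated noncoding genes between it and Hoxc4. Evx2 on chromosome 2 stood beside Hoxd13 at the 5′ end of the HoxD cluster, with no gene between them. Gm53 on chromosome 11 lay between Hoxb9 and Hoxb13, toward the 5′ end of the HoxB cluster, with 1 annotated gene between it and Hoxb9. Of the 8 coding genes that directly flank the 4 clusters, 3 were listed between control levels, namely Skap2, Smug1 and Evx2. These 3 were chosen because they are listed, and the share of all coding genes listed was not analysed, so the count carries no test. The other flanking genes, Evx1, Ttll6, Skap1, Calcoco1 and Mtx2, were not listed in any table, and their values were not analysed here. A list of 49 further names of genes in or near the clusters, older symbols included, likewise had 0 listed in the 3 tables.

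The promoters of 4 of the 6 genes were found in the RefSeq table (250 bases before to 50 after the start, GRCm38.p6), namely those of Smug1, Skap2, Evx2 and Gm15050. They were searched on both strands for TGATNNAT, a motif bound by Pbx together with Hox proteins, and for the homeodomain core TAATTA. The 2 motifs share no stretch in these promoters, because TAATTA was found in 0 of the 4. Evx2 was the only one of the 4 with TGATNNAT, on its coding strand. Of 32851 promoters of 300 bases, 8.85% held TGATNNAT and 5.29% held TAATTA. Of the 10 Hox genes listed between control levels, 6 had a promoter in the table, and of their 7 promoters those of Hoxa2 and Hoxb8 held TGATNNAT and none held TAATTA. A match describes the letters only, and no match says nothing about binding.

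The Evx2 promoter is shown because it holds the match, in capitals, the Smug1 promoter because Smug1 is the gene listed in both a control-level and a mutant comparison, and the Gm15050 promoter because it starts inside the HoxA cluster. All run 5′ to 3′ along the gene's own strand, which is minus for Evx2 (chr2:74659508-74659807) and Smug1 (chr15:103163235-103163534) and plus for Gm15050 (chr6:52172631-52172930).
Evx2: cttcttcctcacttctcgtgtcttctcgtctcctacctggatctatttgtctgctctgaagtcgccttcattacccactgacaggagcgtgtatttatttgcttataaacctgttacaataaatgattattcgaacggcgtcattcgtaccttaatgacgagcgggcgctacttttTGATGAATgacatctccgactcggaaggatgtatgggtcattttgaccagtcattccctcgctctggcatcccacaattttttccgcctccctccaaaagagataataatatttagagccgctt
Smug1: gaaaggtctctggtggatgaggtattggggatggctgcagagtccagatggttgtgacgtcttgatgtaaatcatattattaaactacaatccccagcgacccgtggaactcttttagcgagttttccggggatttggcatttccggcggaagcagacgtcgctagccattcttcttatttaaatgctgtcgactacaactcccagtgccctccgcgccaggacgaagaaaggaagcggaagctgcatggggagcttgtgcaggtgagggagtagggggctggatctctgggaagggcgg
Gm15050: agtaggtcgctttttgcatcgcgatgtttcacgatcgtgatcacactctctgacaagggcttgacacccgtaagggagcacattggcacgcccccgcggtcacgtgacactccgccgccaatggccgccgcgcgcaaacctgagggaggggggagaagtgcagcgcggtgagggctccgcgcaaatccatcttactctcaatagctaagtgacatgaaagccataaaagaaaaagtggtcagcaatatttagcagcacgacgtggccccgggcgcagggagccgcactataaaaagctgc
The Evx2 promoter was 44.3% G and C with 16 CpG pairs, that of Smug1 53.0% with 15, that of Gm15050 57.0% with 25 and that of Skap2 66.0% with 28. The median of the 32851 promoters was 52.7% and 7 CpG pairs.

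Between control levels, 4 of the genes were higher in brachial motor neurons, namely Smug1, Skap2, Hotairm1 and Gm15050, and Evx2 and Gm53 were lower there. The brachial and thoracic libraries did not overlap for 6 of 6 genes, where 98.4% of all 64 listed genes did not overlap, so this count says nothing particular about them. In the brachial-higher direction this held for 4 of the 6, against 35.9% of all listed genes. The median brachial minus thoracic difference was 1.10 on the log2 scale for the 6 genes and -1.14 for the 64. The authors list a gene here when its adjusted p is under 0.05 and its log2 fold change is beyond 1 in either direction, and in the authors' deposited table the 6 genes run from a log2 fold change of -2.96 for Gm53 to 2.28 for Smug1. Nearest to these limits were Skap2 with a deposited log2 fold change of 1.08 and Evx2 with a deposited adjusted p of 0.0327. Genes just outside the limits were not analysed here.

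**Figure D1:**
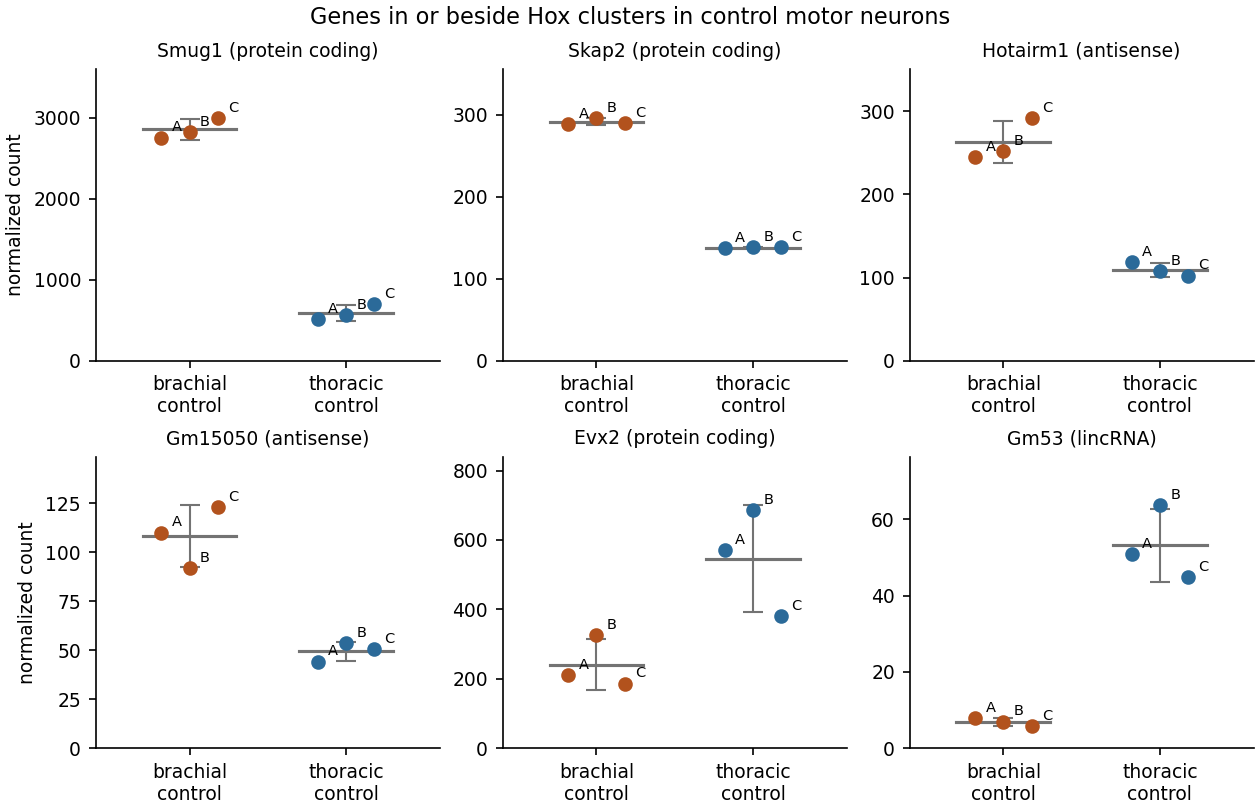
Normalized counts (vertical axes, linear from 0, different in each panel) of the 6 genes in the brachial control and thoracic control libraries A, B and C; grey lines are means and bars SD (n = 3). The groups do not overlap in any panel, and as a ratio the nearest libraries across groups are those of Evx2, with 325.4 in brachial library B and 381.5 in thoracic library C.

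Smug1 encodes a DNA glycosylase that removes uracil and related damaged bases from DNA as the opening step of base excision repair. It had 2756, 2822 and 3001 normalized counts in brachial control libraries A, B and C, against 512.1, 565.2 and 698.6 in thoracic control libraries A, B and C. Every brachial library was far above every thoracic one, and library C was the highest of both groups. Smug1 averaged 2860 ± 127 in brachial and 592.0 ± 96.1 in thoracic controls (SD, n = 3 each), 4.83-fold higher, a log2 difference of 2.28 (SE 0.17). This was the sixth largest of the 24 listed differences in the brachial direction. Of 16 base excision repair genes taken as a list, Smug1 alone was listed in the control-level and the thoracic mutant table and 0 in the brachial mutant table.

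Skap2 encodes a cytoplasmic adaptor protein that works with Src family kinases and is best known from integrin signalling in blood cells. It had 288.8, 296.3 and 289.7 normalized counts in brachial control libraries A, B and C, against 137.6, 138.6 and 138.5 in the thoracic libraries. Both groups were tight and far apart. Skap2 averaged 291.6 ± 4.11 in brachial and 138.2 ± 0.565 in thoracic controls (SD, n = 3 each), 2.11-fold higher, a log2 difference of 1.07 (SE 0.13). If 1 step is 1 read, counting alone would give an SD of 18.3 in the brachial and 11.0 in the thoracic libraries, so the observed spread was below counting error in both.

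Evx2 encodes a homeodomain factor of the even-skipped family, which with Evx1 marks a ventral interneuron class, V0, in the spinal cord. It had 211.3, 325.4 and 185.9 normalized counts in brachial control libraries A, B and C, against 571.5, 686.5 and 381.5 in the thoracic libraries. Library B was the highest and library C the lowest in both groups, and the gap between the groups was smaller than the range within either. Evx2 averaged 240.9 ± 74.3 in brachial and 546.5 ± 154 in thoracic controls (SD, n = 3 each), 2.27-fold lower in brachial controls, a log2 difference of -1.18 (SE 0.32). Counting alone would give SDs of 16.6 and 21.6. Among other V0 interneuron markers Evx1, Dbx1, Lhx1, Lhx5 and Pax2 were not listed in that table, and of 12 markers of other interneurons 0 were listed. Their part in this result was not tested. Each library pools many sorted cells, so more Evx2 RNA per cell and more cells with Evx2 RNA cannot be told apart, and the same holds for the other genes.

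Hotairm1 is an antisense RNA of the HoxA cluster, known in human myeloid cells for a role in switching on nearby HOXA genes. It had 245.0, 252.2 and 292.0 normalized counts in brachial control libraries A, B and C, against 118.9, 107.8 and 102.4 in the thoracic libraries. The lowest brachial library was above every thoracic one. Hotairm1 averaged 263.0 ± 25.3 in brachial and 109.7 ± 8.38 in thoracic controls (SD, n = 3 each), 2.40-fold higher, a log2 difference of 1.26 (SE 0.16).

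Gm15050, a predicted antisense gene, had 110.1, 91.8 and 123.2 normalized counts in brachial control libraries A, B and C, against 44.2, 53.5 and 50.7 in the thoracic libraries. Its brachial libraries were spread more than its thoracic ones and stayed above them. It averaged 108.4 ± 15.8 in brachial and 49.5 ± 4.81 in thoracic controls (SD, n = 3 each), 2.19-fold higher, a log2 difference of 1.12 (SE 0.18).

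Gm53, a predicted long noncoding gene, had 7.87, 6.97 and 5.70 normalized counts in brachial control libraries A, B and C, against 51.0, 63.8 and 44.9 in the thoracic libraries. It was low in every brachial library. If 1 step is 1 read, these are 7, 6 and 5 reads in brachial libraries and 60, 81 and 46 reads in thoracic ones, and the brachial reads are the fewest of the 6 genes. Gm53 averaged 6.85 ± 1.09 in brachial and 53.2 ± 9.64 in thoracic controls (SD, n = 3 each), 7.77-fold lower in brachial controls, a log2 difference of -2.87 (SE 0.21), the sixth largest of the 40 listed in the thoracic direction.

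Read beside the listed Hox genes of the same cluster, most of the genes had the sign of the nearest listed one. Of the 6, 5 had that sign and Gm53 had the opposite sign. The nearest listed gene was Hoxa2 for each of Skap2, Hotairm1 and Gm15050, so these are not separate agreements. For Evx2 and Gm53, unlisted Hox genes lie nearer than the listed one. In the HoxA cluster Hoxa2, at the 3′ side, was 1.09 higher in brachial controls on the log2 scale (SE 0.18), and its neighbours Hotairm1, Gm15050 and Skap2 were higher by 1.26, 1.12 and 1.07. Toward the 5′ end Hoxa9 (-2.02, SE 0.15) and Hoxa10 (-5.92, SE 1.02) were lower in brachial controls. In the HoxC cluster Hoxc4 (1.17, SE 0.14), Hoxc5 (1.21, SE 0.18) and Hoxc6 (1.31, SE 0.14) were higher in brachial controls, as Smug1 beyond Hoxc4 was, while Hoxc9 (-1.07) and Hoxc10 (-7.53) were lower. Hoxc5 and Hoxc10 share exon sequence in GENCODE, which makes their counts uncertain. Evx2 was lower in brachial controls, as was Hoxd9 (-5.34, SE 1.15), the 1 listed HoxD gene. Gm53 was lower in brachial controls (-2.87) while Hoxb8, on the 3′ side of the unlisted Hoxb9, was higher (1.06, SE 0.22). Hoxa10, Hoxc10 and Hoxd9 rest on 8, 4 and 13 reads over the 3 brachial libraries if 1 step is 1 read, so their sizes depend on the pseudocount. Both gene sets were selected on this contrast, and these signs are a description.

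**Figure D2:**
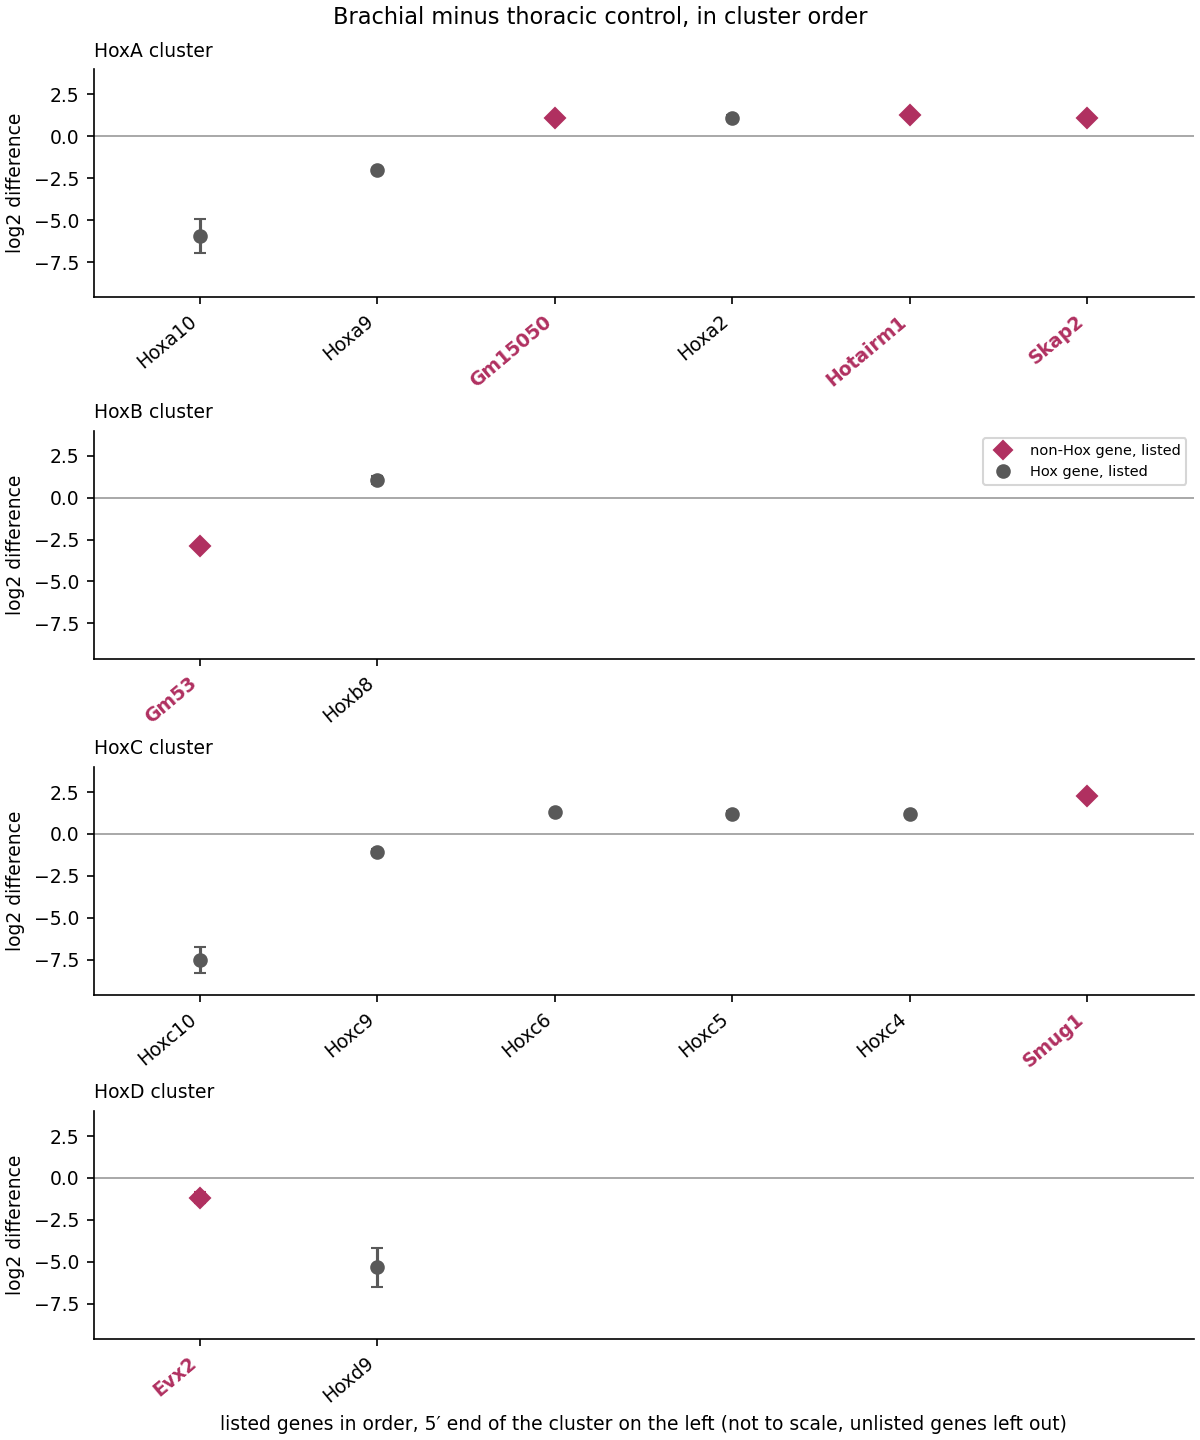
Brachial minus thoracic control difference on the log2(normalized count + 0.5) scale (vertical axis, bars are SE) for the listed genes of each cluster in gene order, 5′ end on the left; diamonds are the 6 non-Hox genes, and circles the 10 listed Hox genes. Diamonds at the 3′ side of HoxA and HoxC lie above 0, Evx2 at the 5′ end of HoxD and Gm53 toward the 5′ end of HoxB lie below 0.

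Ratios within a library, taken for all of the genes but Evx2, showed which kept pace with a Hox gene of their cluster. For Evx2 and Hoxd9 the brachial minus thoracic differences were -1.18 and -5.34. Evx2 thus changed less than Hoxd9, which has few brachial reads. The log2 ratio of Skap2 to Hoxa2 averaged -1.10 ± 0.20 in brachial and -1.09 ± 0.14 in thoracic controls (SD, n = 3 each), and that of Gm15050 to Hoxa2 averaged -2.54 ± 0.20 and -2.57 ± 0.13 in brachial and thoracic controls. The ratio of Hotairm1 to Hoxa2 was -1.25 ± 0.07 in brachial and -1.42 ± 0.25 in thoracic controls. The brachial and thoracic ratios overlapped for these 3 genes. Smug1 moved more than its neighbours did. Its log2 ratio to Hoxc4 was 0.84, 0.73 and 0.82 in brachial control libraries A, B and C, against -0.51, -0.40 and -0.05 in thoracic ones. The brachial mean ratio of Smug1 was thus 1.12 above the thoracic one relative to Hoxc4, 1.07 relative to Hoxc5 and 0.97 relative to Hoxc6, with no overlap between the groups in any of the 3. The ratio of Gm53 to Hoxb8 averaged -5.61 ± 0.35 in brachial and -1.69 ± 0.13 in thoracic controls. These ratios use the libraries that chose the genes and have no test, and they compare change between genes, not level.

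**Figure D3:**
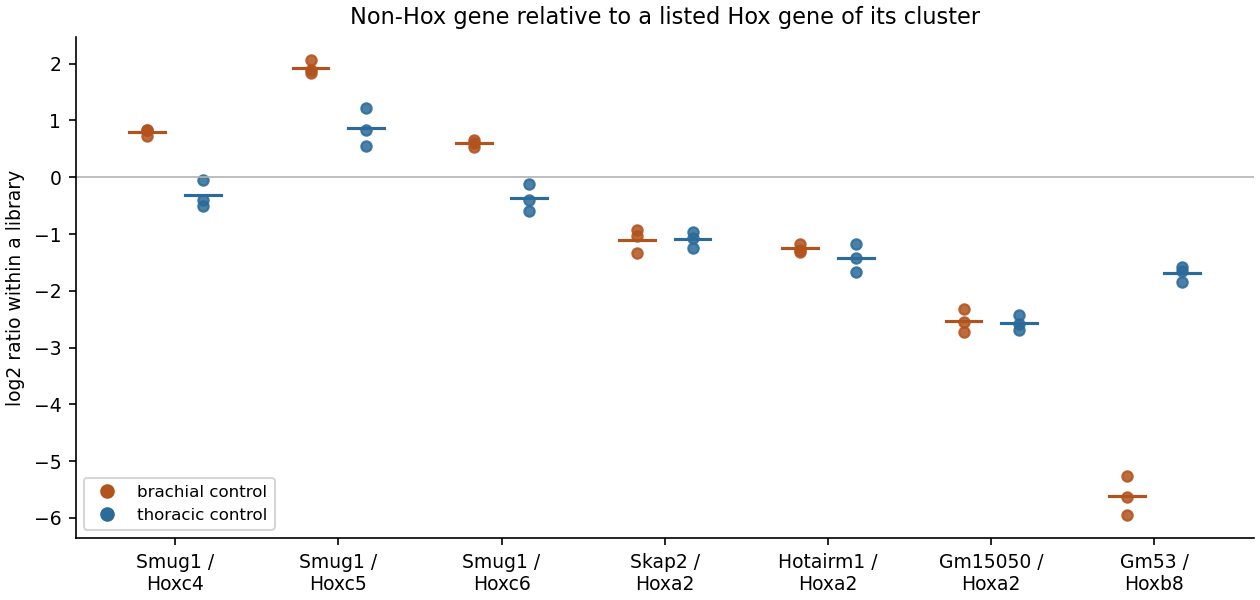
Log2 ratio of a non-Hox gene to a listed Hox gene of its cluster within each control library (vertical axis); orange points are brachial and blue points thoracic controls, and short lines are means (n = 3 each). The HoxA pairs overlap between levels, Smug1 lies higher against each of 3 HoxC genes in brachial controls, and Gm53 lies lower against Hoxb8. Evx2 is not shown.

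The genes most like each of the 6 were sought by Pearson's r of log2 values over the 6 control libraries, which share the brachial and thoracic grouping that selected every listed gene. Skap2 (r = 0.993) and Hoxc6 (0.990) were closest to Smug1, Hoxc4 (0.998) and Hoxc6 (0.996) to Skap2, Hoxc6 (0.992) and Hoxc4 (0.990) to Hotairm1, and Hoxc6 (0.975) and Smug1 (0.973) to Gm15050. Gpr149 (0.992) and Hoxc10 (0.990) were closest to Gm53. Evx2 was closest to 2 genes outside the clusters, Ndst4 (0.973) and Tmem255a (0.973).

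With each library centred on the median deviation of the listed genes, the median control-level difference moved by 0.95 on the log2 scale, because more listed genes are higher in thoracic libraries, and every difference moved with it. All 6 genes kept their direction. Smug1, Skap2, Hotairm1 and Gm15050 then stood 3.23, 2.02, 2.20 and 2.06 higher in brachial controls, Gm53 stood at -1.92 and Evx2 at -0.24, with brachial and thoracic libraries of Evx2 overlapping.

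The thoracic mutant comparison asks which motor neuron genes change when Pbx function is removed. Pbx3, the 1 Pbx gene listed there, had 2350, 2448 and 1950 normalized counts in thoracic mutant libraries A, B and C, against 3256, 3150 and 3714 in thoracic control libraries. All mutant libraries were below all controls, but since the deleted part is not given this level does not check the labels. None of 39 Hox genes is listed in either mutant table.

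Smug1 was the 1 gene of the 6 listed there, and it was higher in thoracic mutants. It had 831.5, 1154 and 856.3 normalized counts in thoracic mutant libraries A, B and C, against 589.4, 652.0 and 804.3 in thoracic control libraries A, B and C. The groups did not overlap, though mutant A was close to control C, and mutant B stood above the other mutants. Smug1 averaged 947.1 ± 179 in mutants and 681.9 ± 111 in controls (SD, n = 3 each), 1.39-fold higher, a log2 difference of 0.47 (SE 0.19, 95% interval 0.01 to 0.93) with a limma adjusted p of 0.0483. Of all 130 listed genes 94.6% passed this test and 19.2% passed as higher in mutants, and since the authors selected them on these libraries the call is not independent evidence. An exact two-sided permutation test of Smug1 gave p = 0.10, the smallest that 3 against 3 libraries allow.

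The call of Smug1 rested on all libraries but 1. Leaving out mutant A, B or C, or control A or B, ended it, with differences of 0.56, 0.32, 0.53, 0.37 and 0.44, and leaving out control C kept it at 0.59. With the replicate letters fitted as a block, though they are not known to pair the libraries, the limma adjusted p was 0.0677 and the call ended. Centring moved the median listed thoracic difference by 0.64 and raised the Smug1 difference to 1.11 (limma adjusted p = 0.00396). Of the listed genes 103 were lower and 27 higher in mutants, so centring raised every difference, and this smaller p does not strengthen the call. Over the 14 alternatives run the limma adjusted p ranged from 0.00396 to 0.145. In the 2 tables side by side, Smug1 was 2.28 higher in brachial than in thoracic controls and 0.47 higher in thoracic mutants than in thoracic controls. The 2 comparisons share the 3 thoracic control libraries, and each table was normalized separately. The thoracic mutant values of Skap2, Evx2, Hotairm1, Gm15050 and Gm53, and the brachial mutant values of all 6 genes, were not analysed here.

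**Figure D4:**
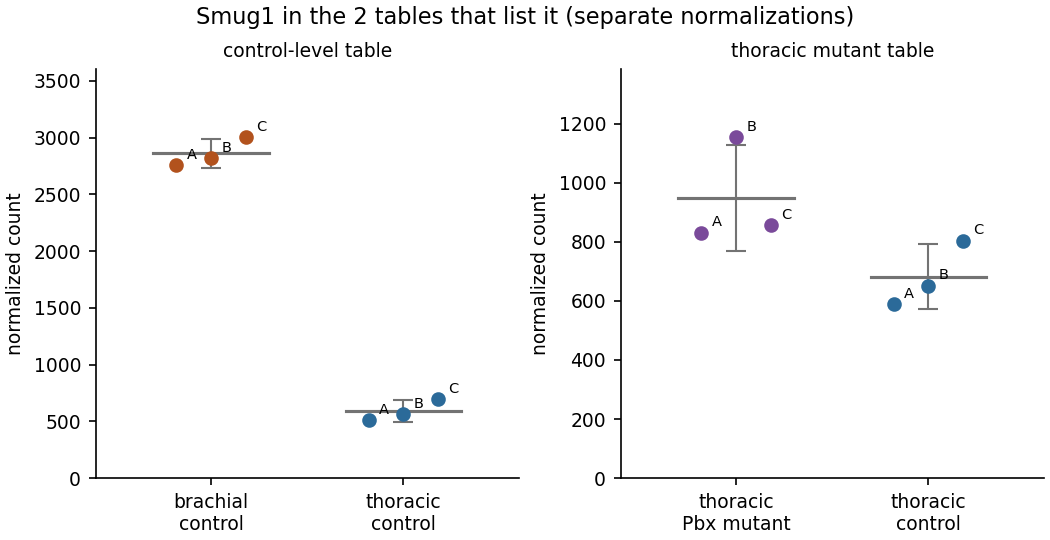
Smug1 normalized counts (vertical axes, linear from 0) in the control-level table, left, and in the thoracic mutant table, right; points are libraries A, B and C, grey lines means and bars SD (n = 3). Brachial controls lie between 2756 and 3001 and thoracic mutants between 831.5 and 1154, each above the thoracic controls of the same table.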

How the data were processed

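The submitters' processing notes name DESeq2 1.12.3, HTSeq 0.6.1p1, Picard 1.88 and Bowtie 1.0.0, and the builds mm9 and NCBIM37; settings were not given in the sources read here. The authors deposited 1 table per comparison, cut to the genes they kept. The library columns of these deposited tables, called CPM in the titles, hold a signal that the authors normalized by 1 factor per library: dividing by 1 step turned 100% of the nonzero values into whole numbers (tolerance 1e-06). Library totals were not analysed here. The log2 fold changes, test scores and p-values, raw and adjusted, are the authors' own, as deposited.

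Values were taken as log2(value + 0.5) without a filter and fitted per table with limma 3.58.1 in R 4.3.3, which gave each difference and its SE, with Benjamini-Hochberg adjustment over all genes of the table and a threshold of 0.05. The planned design assumed no other unit. The fit was tested on simulated data. The genes and lists were chosen with earlier results of these data known. The text names the 6 genes, the listed Hox genes, the 2 listed genes most like each, and Pbx3, and the other flanking coding genes are named besides. All 205 identifiers were found in GENCODE, and 201 have the same symbol there. Ratios to Hox genes, the GC content and CpG counts were added after the values were seen. The rest used Python 3.11.15, scipy 1.17.1, pandas 2.3.3, numpy 2.4.6 and matplotlib 3.10.9. Other settings tried were a pseudocount of 0.1 or 2, a minimum mean of 1 or 10, centring, an intensity trend, the replicate block, leaving out each library, and the authors' deposited fold changes.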

Additional observations from a re-analysis of the deposited data

How the results depend on the processing

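The 6 control-level differences kept their direction under every alternative run, and other than under centring each moved by less than the SD between libraries. Leaving out each library in turn gave 2.18 to 2.41 for Smug1, 1.06 to 1.08 for Skap2, 1.18 to 1.31 for Hotairm1, 1.02 to 1.23 for Gm15050, -1.42 to -0.996 for Evx2 and -2.98 to -2.73 for Gm53, with 6 genes not overlapping each time. With centring 5 genes did not overlap. The Smug1 difference in thoracic mutants ranged from 0.32 to 0.59 over the left-out libraries, and its adjusted p from 0.00396 to 0.145 over 14 alternatives. With the replicate block it was 0.47 with a limma adjusted p of 0.0677, and 118 genes of that table passed against 123 without it. The letters are not known to pair the libraries: same-letter correlations of deviations from the group means ran from -0.13 to 0.31 in the thoracic mutant table and from -0.03 to 0.29 between control levels, and not every library correlated best with its own letter. Centring left 59 genes of the thoracic table past the threshold. The planned count model on recovered reads was not run, because the deposited tables hold too few low values to recover reads by the rule used here. Depth limits Gm53 most, with 18 reads over the brachial libraries if 1 step is 1 read.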

Other observations

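Evx2 spread widely within thoracic controls, with 571.5, 686.5 and 381.5 normalized counts in libraries A, B and C. Of the listed Hox genes toward the 5′ ends, Hoxc10 had 274.3, 390.5 and 189.3 normalized counts in these libraries, Hoxd9 had 124.8, 200.7 and 77.1, and Hoxa10 had 146.9, 142.5 and 72.2, so library C was lowest for all 3, as for Evx2. Hoxa9 differed less, with 1090, 1049 and 951.3 normalized counts, and Hoxc9 had 996.1, 933.6 and 1037, with library C highest. Toward the 3′ side, Hoxc4 had 727.8, 747.1 and 722.0 normalized counts, and Hoxc5 had 287.9, 388.1 and 300.5. Hoxc6 had 775.3, 746.3 and 759.1, and Hoxa2 had 268.3, 289.7 and 328.8, so the libraries had no common order over these genes. Hoxb8 had 183.4, 192.1 and 141.5, so library C was lowest for it as well. In brachial controls Evx2 was highest in library B (325.4), where Hoxa10 and Hoxd9 had 0 and Hoxc10 had 1.16. Those Hox genes have few brachial reads. These orders were noticed in the values and were not tested.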
